A study of Mus musculus with 6 samples.

Results

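The Krüppel-like factor (KLF) genes were followed in 4T1 cells, a mouse mammary carcinoma line, after 24 h with 10 µM P3FI-90, the KDM3B inhibitor, or with DMSO, the vehicle. The members were the rows of the read-count table whose symbol is Klf2, Klf3, Klf4, Klf5, Klf6, Klf7, Klf9, Klf10, Klf11 or Klf13, which gave 10 of the 22105 named genes, each with reads in every library. RNA-seq was done on 3 libraries of each group, and both groups were cells of the same line in culture, without any genetic change. The labels do not say whether the 3 libraries of a group came from separate cultures, so p-values measure the spread between these libraries, which may be technical.

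KLF proteins are transcription factors that bind GC-rich and CACCC elements of promoters through zinc fingers at their C-terminal end, much as the related Sp proteins do. Their N-terminal parts differ and recruit different partners. Klf3 is known to repress through the CtBP corepressors, the proteins of Klf2, Klf4, Klf5, Klf6 and Klf7 mostly activate and can bind acetyltransferases such as p300, and those of Klf9, Klf10, Klf11 and Klf13 can bind the Sin3 repressor complex. In epithelia, KLF4 is known for cell cycle exit and differentiation, and KLF5 for proliferation.

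Promoter windows of 300 bases, from 250 bases before the annotated start to 50 after it, were taken from a set of RefSeq promoters (GRCm38.p6). They were matched by symbol for 8 of the 10 members, and the set used here held none for Klf5 and Klf10. They are shown for the pair of members with windows whose transcripts rose most, Klf11 and Klf4, and for the pair that did not pass the test, Klf9 and Klf2. Capitals mark CACGTG and CACCC (or its reverse complement GGGTG). The windows lie at chr12:24651121-24651420 on the plus strand (Klf11), chr4:55532426-55532725 on the minus strand (Klf4), chr19:23140976-23141275 on the plus strand (Klf9) and chr8:72318812-72319111 on the plus strand (Klf2).
Klf11: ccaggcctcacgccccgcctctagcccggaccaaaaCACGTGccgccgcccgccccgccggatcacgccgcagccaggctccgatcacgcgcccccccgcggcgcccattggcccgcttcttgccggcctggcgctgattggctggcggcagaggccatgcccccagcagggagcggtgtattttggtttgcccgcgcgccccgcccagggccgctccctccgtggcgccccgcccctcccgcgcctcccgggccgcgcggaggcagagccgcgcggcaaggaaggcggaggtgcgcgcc
Klf4: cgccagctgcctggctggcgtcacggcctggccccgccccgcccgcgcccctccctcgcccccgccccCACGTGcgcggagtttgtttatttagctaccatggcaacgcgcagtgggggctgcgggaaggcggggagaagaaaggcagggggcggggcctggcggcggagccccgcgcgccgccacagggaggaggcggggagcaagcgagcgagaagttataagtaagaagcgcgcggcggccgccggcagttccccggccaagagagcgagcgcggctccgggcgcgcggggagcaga
Klf9: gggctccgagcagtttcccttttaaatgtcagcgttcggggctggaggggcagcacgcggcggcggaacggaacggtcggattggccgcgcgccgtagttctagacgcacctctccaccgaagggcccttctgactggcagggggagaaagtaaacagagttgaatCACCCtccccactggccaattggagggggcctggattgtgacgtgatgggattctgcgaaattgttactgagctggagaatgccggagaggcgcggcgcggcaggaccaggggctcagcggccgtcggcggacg
Klf2: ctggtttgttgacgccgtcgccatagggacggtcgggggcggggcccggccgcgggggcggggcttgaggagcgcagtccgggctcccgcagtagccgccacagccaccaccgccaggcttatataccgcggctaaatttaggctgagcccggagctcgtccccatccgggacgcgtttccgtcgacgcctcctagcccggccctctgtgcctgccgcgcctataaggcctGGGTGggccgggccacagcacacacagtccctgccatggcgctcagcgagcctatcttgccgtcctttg

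The letters CACGTG, the palindromic E-box, stood in 3 of the 8 windows (Klf4, Klf6 and Klf11) and in 7.15% of all 32851 promoter windows of the same length. Its first base was at position -214 from the start site in Klf11, at -182 in Klf4 and at -43 in Klf6. CACCC on either strand stood in 5 windows (Klf2, Klf3, Klf7, Klf9 and Klf13), against 57.5% of all windows, and neither the Klf11 nor the Klf4 window held it. GGGCGG or CCGCCC, the GC box that Sp and KLF proteins can bind, stood in 7 of the 8 windows, all but that of Klf9, against 35.7% of all. The 8 windows had a GC content of 58.3% to 77.7%, and the median over all windows was 52.7%. CCAAT on either strand stood in 4 windows (37.4% of all), and TGACGTCA (1.79% of all) and TATAAA (13.6% of all), both strands searched, in none. These matches describe letters in the windows only.

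Reads on named genes summed to 31327094 to 37395732 per DMSO library and 33202224 to 36238143 per P3FI-90 library. Values are given as normalized counts, which are read counts scaled by edgeR's TMM method to the mean effective library size. Differences were tested with edgeR's quasi-likelihood test, with Benjamini-Hochberg adjustment over the 12288 genes tested, and a gene is said to rise or fall only at an adjusted p under 0.05. Of 6 epithelial markers, all (Epcam, Cdh1, Krt7, Krt8, Krt18 and Krt19) were abundant, and all 6 fell, from a summed level of 4270 to 4520 CPM (counts scaled to library size) in DMSO to 1780 to 1870 CPM after P3FI-90. Among leukocyte markers, Adgre1 had no reads, and the sum with Ptprc, Cd3e and Itgam reached at most 0.837 CPM, and the sum of 4 endothelial markers was 0 to 0.378 CPM in DMSO and 0.615 to 0.961 CPM after P3FI-90. Of 4 fibroblast markers, Pdgfra made up nearly all of a sum of 38.1 to 39.5 CPM in DMSO and 26.8 to 30.0 CPM after P3FI-90. Kdm3b, which encodes the target of the inhibitor, had 2791, 2924 and 2839 normalized counts in DMSO and 3049, 3160 and 3119 after P3FI-90 (log2 fold change 0.13, edgeR adjusted p = 0.0169). This call was lost with upper quartiles (adjusted p = 0.0801) and without the first DMSO (0.0627), the second P3FI-90 (0.0588) or the third P3FI-90 library (0.0518), and its log2 fold change was 0.34 with total counts and -0.10 with the length and GC trend removed (adjusted p = 0.0403). The part of these marker shifts in the KLF values was not tested, and in bulk RNA fewer cells of a kind and less RNA per cell cannot be told apart.

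Of the 10 members, 8 rose after P3FI-90 (Klf11, Klf10, Klf4, Klf5, Klf7, Klf6, Klf3 and Klf13, in order of size), 0 fell, and Klf9 and Klf2 did not pass the test. Over all genes tested, 39.9% rose and 39.4% fell. The share of members called in either direction, 8 of 10, was close to the 79.3% over all genes. A log2 fold change over 1 was reached by 3 members, Klf11, Klf10 and Klf4, against 12.7% of all genes tested, and 0 members were below -1, against 10.6%. The median log2 fold change of the 10 members was 0.51, and that of all genes tested was 0.013. The members were chosen with earlier results of these data known, and the 4 other Klf genes tested had a median of -0.24. The same 8 members had no overlap between the groups, all of them higher, which held for 41.0% of all genes tested. A lower group without overlap was found for 0 members and 40.2% of all genes, and no overlap in either direction for 8 members and 81.2%. An exact two-sided permutation test over 3 libraries against 3 cannot give a p below 0.1 for a single gene, and it gave 0.1 for each of these 8. When libraries were scaled by their total counts instead of TMM, the log2 fold changes of all genes shifted by a median of 0.21, and the rises made up 62.9% instead of 50.3% of all calls.

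**Figure D1:**
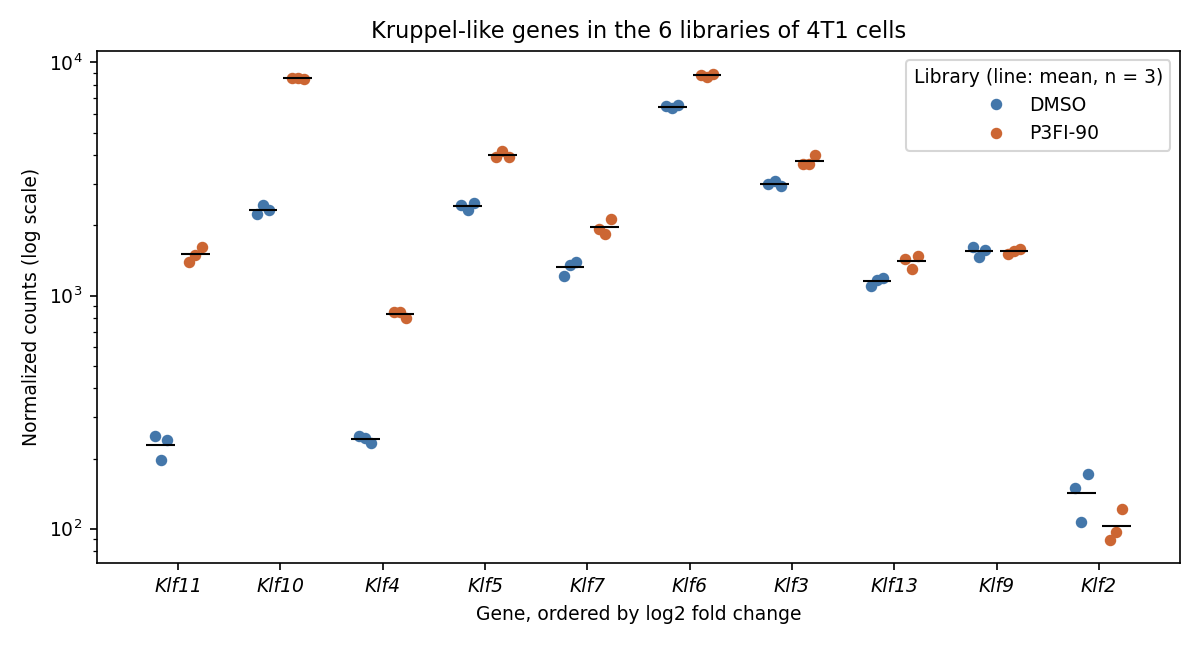
Normalized counts (vertical log axis) of the 10 Krüppel-like genes, ordered by log2 fold change, in the 3 DMSO (blue) and 3 P3FI-90 (orange) libraries, with a line at each mean. The groups are apart for Klf11, Klf10, Klf4, Klf5, Klf7, Klf6, Klf3 and Klf13, and overlap for Klf9 and Klf2.

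Among the members whose proteins can bind Sin3, Klf11 and Klf10 rose most. Both are known as early genes of the TGF-beta response, whose proteins repress growth-related genes. Klf11 (ENSMUSG00000020653) had 249.96, 198 and 239.8 normalized counts in the DMSO libraries and 1398, 1496 and 1609 in the P3FI-90 libraries. The lowest P3FI-90 library was thus far above the highest DMSO library, and the means rose from 229 ± 27.8 to 1501 ± 105 (SD, n = 3). This was a 6.52-fold rise with a 95% interval of 5.67 to 7.503, or 2.71 on the log2 scale (SE 0.094, edgeR adjusted p = 4.89e-12). Of all genes tested, 97.3% had a lower log2 fold change than Klf11.

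Klf10 (ENSMUSG00000037465) had 2232, 2449.7 and 2316 normalized counts in DMSO and 8587, 8568 and 8469.7 after P3FI-90. The 3 treated libraries lay close together, well above every DMSO library. The means rose from 2333 ± 109.6 to 8542 ± 63.0 (SD, n = 3), 3.66-fold with a 95% interval of 3.45 to 3.89 (log2 fold change 1.87, SE 0.040, adjusted p = 5.18e-14 from edgeR). Its read ratio to Klf9, which does not depend on how libraries are scaled, was 1.38, 1.68 and 1.47 in the DMSO libraries and 5.68, 5.50 and 5.33 in the P3FI-90 libraries. Klf11 rose more than Klf10: their read ratio, Klf11 to Klf10, was 0.112, 0.0806 and 0.104 in DMSO and 0.163, 0.175 and 0.190 after P3FI-90, without overlap (p = 0.1 in the two-sided exact permutation test).

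Klf13 and Klf9, the other members of the Sin3-binding group, moved little. Klf13 (ENSMUSG00000052040), first described as an activator of Ccl5 in late activated T cells, had 1094, 1166 and 1194 normalized counts in DMSO and 1434, 1296 and 1472 after P3FI-90. All treated libraries were above all controls, but the step was small, 1.22-fold with a 95% interval of 1.10 to 1.34 (log2 fold change 0.28, SE 0.065, adjusted p = 0.00114 from edgeR), and its log2 fold change was 0.50 when libraries were scaled by total counts. Klf9 (ENSMUSG00000033863), a hormone-responsive member induced by glucocorticoids and thyroid hormone, had 1618, 1462 and 1575 normalized counts in DMSO and 1511, 1557 and 1589 after P3FI-90. The groups overlapped fully. Its means were 1552 ± 80.5 and 1552 ± 39.1 (SD, n = 3), and the 95% interval of the log2 fold change ran from -0.12 to 0.12 (adjusted p = 0.998 from edgeR). Scaling by total counts instead gave Klf9 a log2 fold change of 0.21 (adjusted p = 0.00249), the same size as the shift that this scaling gave the median gene.

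Among the members that mostly activate, Klf4 rose most. Klf4 (ENSMUSG00000003032) had 249.96, 244 and 234 normalized counts in DMSO and 849.6, 848 and 798 after P3FI-90. The groups were far apart against a narrow spread within each, with means of 243 ± 8.26 and 832 ± 29.1 (SD, n = 3). This was a 3.43-fold rise with a 95% interval of 3.01 to 3.91 (log2 fold change 1.78, SE 0.088, adjusted p = 1.94e-10 from edgeR).

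Klf5 (ENSMUSG00000005148) rose as well, but less. It had 2445, 2326 and 2486 normalized counts in DMSO and 3909, 4151 and 3918 after P3FI-90, again without overlap. The rise was 1.65-fold with a 95% interval of 1.54 to 1.77 (log2 fold change 0.72, SE 0.046, adjusted p = 3.11e-09 from edgeR). The read ratio of Klf4 to Klf5 was 0.102, 0.105 and 0.094 in the DMSO libraries and 0.217, 0.204 and 0.204 in the P3FI-90 libraries. Klf4 thus gained on Klf5 by 2.07-fold (p = 0.1 in the two-sided exact permutation test).

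Klf6 (ENSMUSG00000000078), an injury-responsive gene that is widely expressed and known as a growth suppressor, had 6498, 6348 and 6531 normalized counts in DMSO and 8869, 8655 and 8911 after P3FI-90. It had the most reads of the 10 members in both groups and rose 1.36-fold with a 95% interval of 1.299 to 1.433 (log2 fold change 0.45, SE 0.033, adjusted p = 1.41e-08 from edgeR). Klf7 (ENSMUSG00000025959), known for its role in neurons and fat cells, had 1211, 1356 and 1393 normalized counts in DMSO and 1928, 1832 and 2135 after P3FI-90. It rose 1.49-fold with a 95% interval of 1.34 to 1.65 (log2 fold change 0.57, SE 0.068, adjusted p = 2.62e-06). In GENCODE M21, 38.2% of the 50-base windows of Klf7 transcripts also occur in Gm26649 on the opposite strand, a gene without a row in the table, and reads of the pair cannot be told apart without strand.

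Klf2 (ENSMUSG00000055148), best known from endothelium under flow and from resting T cells, was the member with the fewest reads over the 6 libraries. It had 149, 107 and 171 normalized counts in DMSO and 89.8, 97.1 and 121 after P3FI-90. The second DMSO library fell within the range of the treated libraries. The log2 fold change was -0.48 (SE 0.22), with a 95% interval of -0.95 to -0.0040, an unadjusted p of 0.0483 and an adjusted p of 0.0603 from edgeR. It passed the test without the second DMSO library (log2 fold change -0.64, adjusted p = 0.0138) and without the third P3FI-90 library (-0.62, adjusted p = 0.0335). With all 6 libraries it also passed with upper quartiles (-0.51, adjusted p = 0.0437), with no filter on low counts (-0.48, 0.0488) and by limma on log2(CPM + 1) (-0.35, 0.0451). The log2 fold change of Klf2 was smaller with total counts (-0.26, adjusted p = 0.285) and with the length and GC trend removed (-0.15, 0.553).

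Klf3 (ENSMUSG00000029178), the CtBP-binding repressor, had 3006, 3086 and 2951 normalized counts in DMSO and 3663, 3661 and 4022 after P3FI-90. The groups did not overlap, and the rise was 1.26-fold with a 95% interval of 1.17 to 1.35 (log2 fold change 0.33, SE 0.048, adjusted p = 1.98e-05 from edgeR). Klf3 has the longest annotated exons of the 10 members, 11243 bases in all. A smooth fit of log2 fold change on exon length and GC content over all genes, with an R2 of 0.0233, gave Klf3 a fitted value of 0.271, the highest of the 10 members, and Klf2 the lowest, -0.33. After subtraction of this trend the log2 fold change of Klf3 was 0.056 (adjusted p = 0.291), so the call of Klf3 was lost. With total counts it was 0.54.

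**Figure D2:**
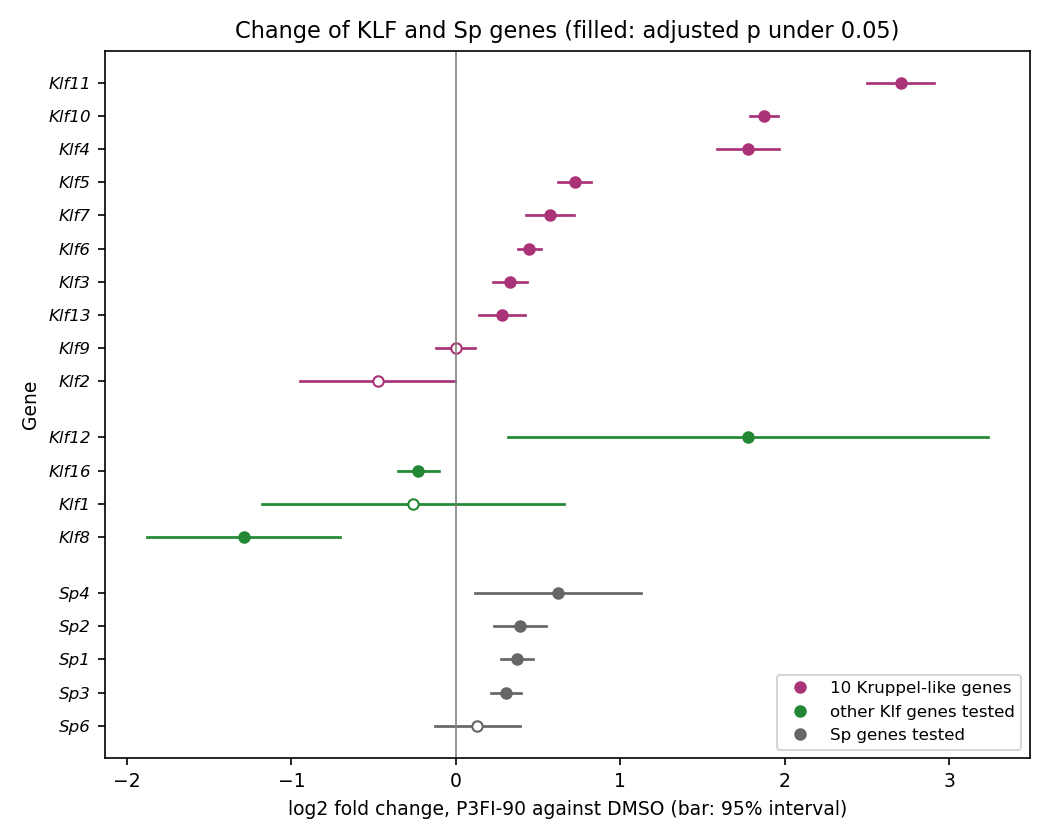
Log2 fold change of P3FI-90 against DMSO (horizontal axis) with its 95% interval for the 10 members, the 4 other Klf genes tested and the 5 Sp genes tested, filled where the adjusted p was under 0.05. Klf11, Klf10 and Klf4 lie above 1, Klf9 lies almost at 0 (-0.00021), and Klf2, Klf1, Klf8 and Klf16 lie below 0.

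To compare levels between genes, CPM were divided by the length of all annotated exons of a gene in kilobases. The order in DMSO was Klf6 at 41.9 ± 0.632 CPM per kb (SD, n = 3), Klf10 at 15.9 ± 0.748, Klf5 at 13.3 ± 0.457, Klf9 at 9.19 ± 0.477, Klf3 at 7.64 ± 0.172, Klf7 at 4.63 ± 0.337, Klf13 at 4.36 ± 0.196, Klf4 at 2.27 ± 0.0773, Klf2 at 2.20 ± 0.503 and Klf11 at 1.51 ± 0.183. Within this order Klf7 and Klf13, and Klf4 and Klf2, were neighbours whose libraries overlapped. After P3FI-90 the order per kb was Klf10, Klf6, Klf5, Klf11, Klf3, Klf9, Klf4, Klf7, Klf13 and Klf2, and Klf10 at 58.3 ± 0.430 and Klf6 at 57.2 ± 0.889 CPM per kb overlapped, as did Klf3 and Klf9, and Klf4 and Klf7. Klf11 moved from the last to the fourth place, at 9.86 ± 0.692 CPM per kb, with libraries that overlapped those of Klf3. With the length of the longest transcript instead, Klf3 stood at 16.5 CPM per kb in DMSO and 20.7 after P3FI-90, and Klf11, at 10.5 after P3FI-90, came after Klf3 in the fifth place.

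The summed level of the 10 members rose from 103 ± 1.45 to 188 ± 1.83 CPM per kb (SD, n = 3). Within that sum, which does not depend on how libraries are scaled when taken as shares, Klf10 went from 15.5% ± 0.865 to 31.1% ± 0.528 and Klf6 from 40.8% ± 0.286 to 30.5% ± 0.369. Klf11 went from 1.46% ± 0.166 to 5.25% ± 0.324 and Klf4 from 2.21% ± 0.0996 to 4.15% ± 0.185. Klf6 lost share although it rose, and Klf9 lost share, from 8.93% ± 0.403 to 4.90% ± 0.0899, at equal mean normalized counts. With the length of the longest transcript in place of all exons, Klf10 made up 17.01% in DMSO and 33.7% after P3FI-90, and Klf6 33.9% and 25.0%, and Klf10 then lay above Klf6 in every P3FI-90 library.

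**Figure D3:**
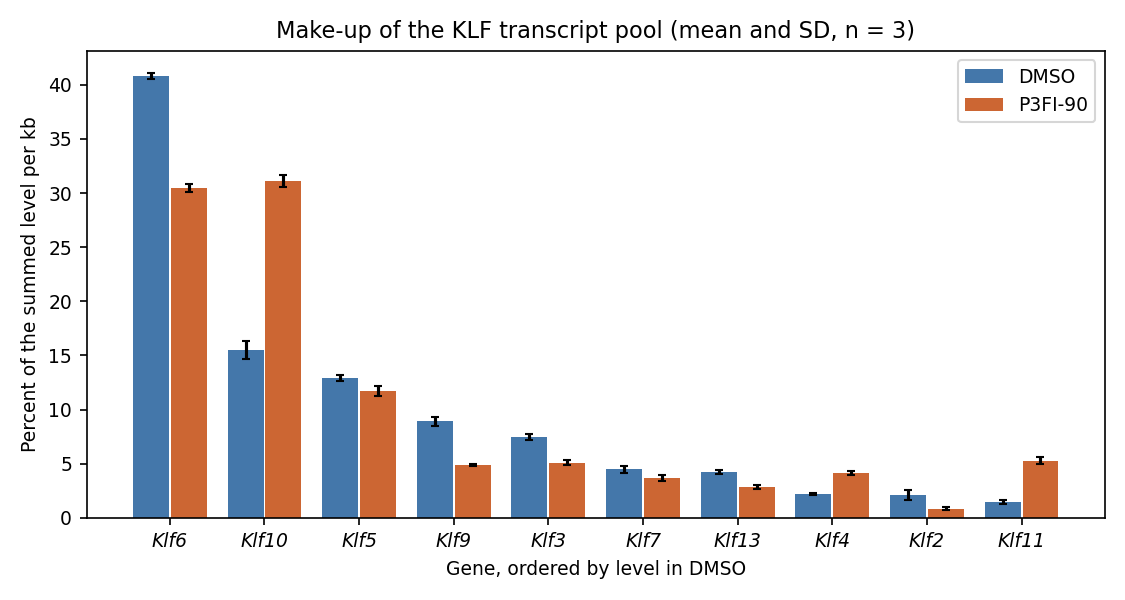
Share of each member in the summed level per kb of the 10 members (vertical axis, percent), as mean and SD over 3 DMSO (blue) and 3 P3FI-90 (orange) libraries. Klf10 goes from 15.5% to 31.1% and Klf6 from 40.8% to 30.5%.

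Of 8 further Klf genes, 7 had a row in the table and 3 of these, Klf14, Klf15 and Klf17, had 0 counts in every library, which allows up to 3 counts or 0.0802 to 0.0958 CPM per library. Among the 4 tested, 1 rose and 2 fell, beside 39.9% and 39.4% of all genes tested, with a median log2 fold change of -0.24. Klf8, a CtBP-binding relative of Klf3 and known to be repressed by KLF3, fell from 165, 130.1 and 114 normalized counts to 35.6, 58.4 and 73.5 (log2 fold change -1.29, SE 0.27, adjusted p = 5.76e-04 from edgeR). Klf16, a Sin3-binding member, fell from 1162 ± 9.94 to 993 ± 5.07 (SD, n = 3; log2 fold change -0.23, adjusted p = 0.00243), but its log2 fold change was -0.013 with total counts (adjusted p = 0.847). Klf12 had only 6, 0 and 8 reads in DMSO and 20, 17 and 18 after P3FI-90 (log2 fold change 1.77, adjusted p = 0.0272; 0.40 by limma on log2(CPM + 1), which understates changes of low genes). This call of Klf12 was lost without the first DMSO (adjusted p = 0.0524), second DMSO (0.086), first P3FI-90 (0.0725) or the third P3FI-90 library (0.0617), with the replicate block (0.0528) and with no filter on low counts (0.109). Klf1, the erythroid founder of the family, had 13 to 25 reads in any library and did not pass the test.

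Of the 9 Sp genes, the closest relatives, 5 were tested, of which 4 rose and 0 fell, with a median log2 fold change of 0.37. The shares over all genes tested were 39.9% that rose and 39.4% that fell. Sp1 went from 4094 ± 176 to 5307 ± 280.2 normalized counts (SD, n = 3; log2 fold change 0.37, SE 0.045, adjusted p = 3.15e-06 from edgeR). Sp2 and Sp3 had log2 fold changes of 0.39 (SE 0.073) and 0.31 (SE 0.043). With total counts the values of Sp1, Sp2 and Sp3 were 0.59, 0.61 and 0.52, and with the length and GC trend removed that of Sp1 was 0.18, all called. Sp4, with 184, 430.0 and 224 normalized counts in DMSO and 489, 416 and 374 after P3FI-90, overlapped between groups, and its log2 fold change was 0.62 (adjusted p = 0.0253) and 1.06 without the second DMSO library. The call of Sp4 was lost without the first DMSO (adjusted p = 0.125), the third DMSO (0.112) or first P3FI-90 library (0.0992), by DESeq2 (0.135) and with the length and GC trend removed (0.0678). Sp6 did not pass the test (adjusted p = 0.327), but was higher with total counts (adjusted p = 0.017) and with the trend removed (0.0223).

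Of 10 cofactors of KLF proteins, 3 rose and 6 fell, with a median log2 fold change of -0.24, beside 39.9% that rose and 39.4% that fell over all genes tested. The 9 of 10 called are near the background of 79.3%, and the split of the list by role was not tested. The 3 that rose encode acetyltransferases: Crebbp, which encodes CBP, from 766 ± 85.8 to 2273 ± 179 normalized counts (SD, n = 3; log2 fold change 1.57, SE 0.080), Ep300, which encodes p300, from 2109 ± 53.4 to 4177 ± 81.9 (log2 fold change 0.99, SE 0.043) and Kat2b, which encodes PCAF, from 1962 ± 95.1 to 3530.1 ± 219.6 (log2 fold change 0.85, SE 0.056). Those that fell encode subunits or partners of repressor complexes. Ctbp1 and Ctbp2, the partners of Klf3, had log2 fold changes of -0.31 (SE 0.037) and -0.35 (SE 0.047), which shrank to -0.091 and -0.14 with total counts, and for Ctbp1 to -0.16 with the length and GC trend removed, with the calls kept. In the Sin3 complex, Sin3a fell from 4125 ± 129 to 2233 ± 48.0 normalized counts (log2 fold change -0.89, SE 0.044), Hdac1 by 0.75 and Sap30 by 0.58 on the log2 scale. The log2 fold change of Sap30 was -0.36 with total counts and -0.29 with the trend removed, both called. Sin3b, the other Sin3 scaffold, had a log2 fold change of 0.079 (adjusted p = 0.113 from edgeR), and passed with total counts (0.29) and without the third P3FI-90 library (adjusted p = 0.0298). Hdac2 had a log2 fold change of -0.18 (adjusted p = 0.0090), which turned to 0.039 with total counts and was not called without the first P3FI-90 library (adjusted p = 0.0582).

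Of 7 ubiquitin ligases known to act on KLF proteins, 4 rose and 2 fell, with a median log2 fold change of 0.23. For comparison, 39.9% of all genes tested rose and 39.4% fell. Smurf1, a ligase of KLF2, rose from 4201 ± 156 to 9964 ± 230.0 normalized counts (SD, n = 3; log2 fold change 1.25, SE 0.038). Vhl, reported to act on KLF4, changed by 0.83 on the log2 scale (SE 0.087), and Itch, reported to act on KLF10, 0.40 (SE 0.035), which was 0.61 with total counts and 0.14 with the trend removed, both called. Wwp1, which targets KLF2 and KLF5, fell, with a log2 fold change of -0.35 (SE 0.050), or -0.13 with total counts (adjusted p = 0.0268). Btrc, reported to act on KLF4, had a log2 fold change of -0.34 (adjusted p = 6.36e-04 from edgeR), a call lost with total counts (adjusted p = 0.126), and one of -0.79 with the trend removed.

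Signals known to induce members were looked at in 3 lists. The kinase ERK5 and its MEF2 factors are known to switch on Klf2 and Klf4. Of 7 genes of that route, 4 rose and 0 fell (median log2 fold change 0.43). Over all genes tested 79.3% were called, with 39.9% that rose and 39.4% that fell. Mef2a rose from 1821 ± 45.1 to 6143 ± 124 normalized counts (SD, n = 3; log2 fold change 1.75, SE 0.040), Map3k2, an upstream kinase, from 1825 ± 105 to 5642 ± 332 (1.63, SE 0.054) and Mef2d from 2530 ± 179 to 3956 ± 75.3 (0.64, SE 0.052), and Map3k3 had a log2 fold change of 0.28 (SE 0.055), or 0.50 with total counts. Mapk7, which encodes ERK5 itself, did not pass the test (log2 fold change -0.13, adjusted p = 0.0745 from edgeR). It turned to 0.088 with total counts, and without the third P3FI-90 library it was -0.18 and passed (adjusted p = 0.0234).

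TGF-beta is the classical inducer of Klf10 and Klf11. Of 8 genes of its ligands, receptors and Smad factors, 2 rose and 3 fell, with a median log2 fold change of 0.022. These counts stand beside 39.9% that rose and 39.4% that fell over all genes tested. The ligand gene Tgfb2 rose from 328 ± 37.0 to 1007 ± 18.1 normalized counts (SD, n = 3; log2 fold change 1.62, SE 0.089), whereas Tgfb3 fell from 2120 ± 61.7 to 1058 ± 30.4 (-1.002, SE 0.052) and Tgfb1 had a log2 fold change of -0.35 (SE 0.067), a call lost with total counts (adjusted p = 0.0834). The receptor genes went apart, with log2 fold changes of 0.40 (SE 0.059) for Tgfbr1 and -0.33 (SE 0.035) for Tgfbr2. These were 0.62 and -0.12 with total counts, and 0.25 for Tgfbr1 with the trend removed, all called. The 3 Smad genes of the list did not pass the test.

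Glucocorticoids are known to induce Klf9. Of 7 genes of that response, 6 were tested, 4 rose and 2 fell, with a median log2 fold change of 0.77. The background over all genes tested was 39.9% that rose and 39.4% that fell. The receptor gene Nr3c1 rose from 2457 ± 185 to 5585 ± 137 normalized counts (SD, n = 3; log2 fold change 1.19, SE 0.050), and its known targets Per1, Tsc22d3 and Dusp1 had log2 fold changes of 1.33 (SE 0.072), 0.85 (SE 0.0999) and 0.70 (SE 0.082). Fkbp5 and Sgk1, also known targets, fell, with log2 fold changes of -0.90 (SE 0.041) and -1.24 (SE 0.044). Klf9 had equal means in both groups with TMM scaling, and a log2 fold change of 0.21 with total counts (adjusted p = 0.00249 from edgeR). A part of glucocorticoid signals in the Klf9 values was not tested.

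**Figure D4:**
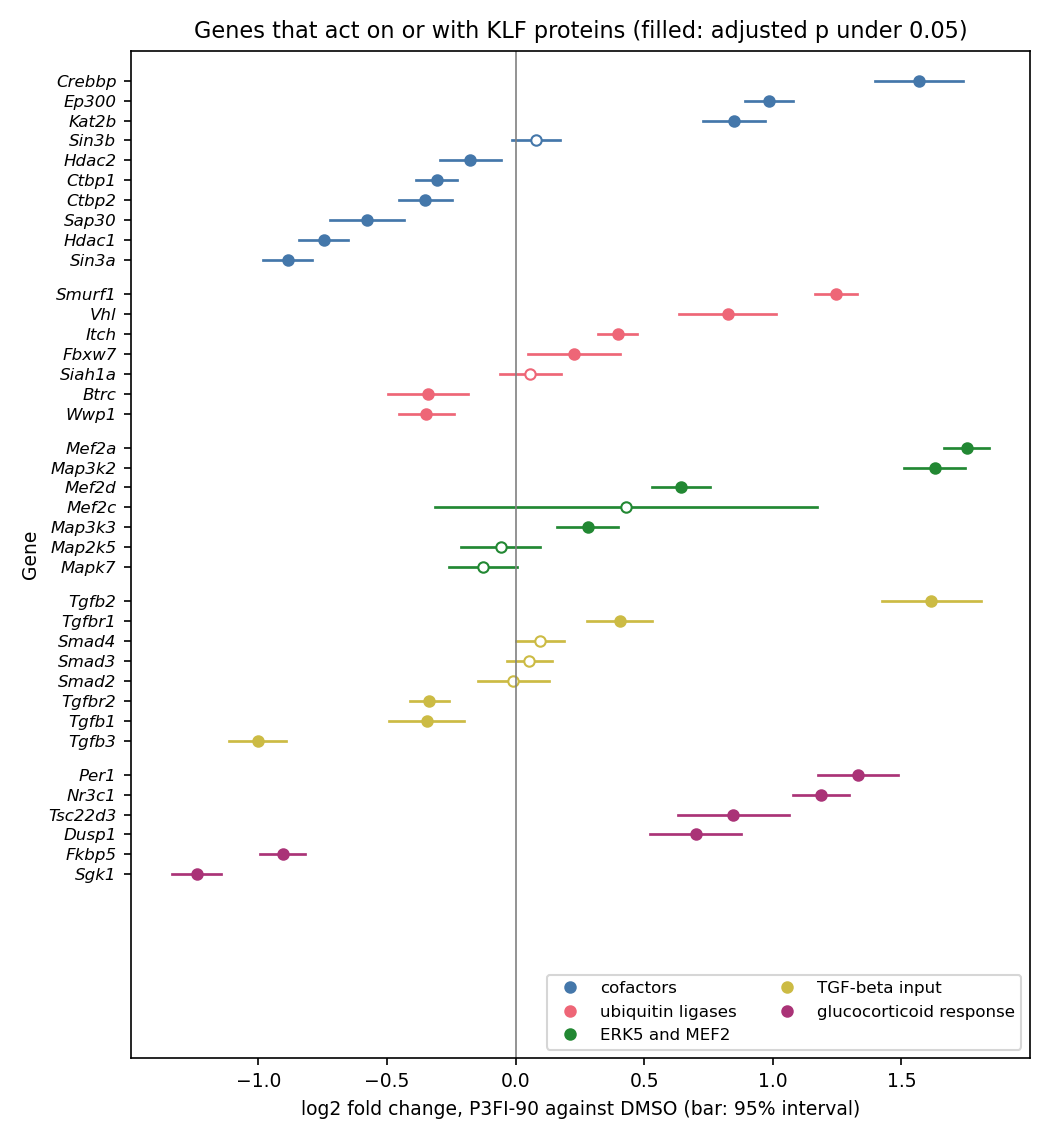
Log2 fold change of P3FI-90 against DMSO (horizontal axis) with its 95% interval for cofactors, ubiquitin ligases and genes of the ERK5, TGF-beta and glucocorticoid routes, filled where the adjusted p was under 0.05. Crebbp, Ep300 and Kat2b lie to the right of 0, and Sin3a, Hdac1, Sap30 and both Ctbp genes to the left.

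Of 21 genes reported as targets of at least 1 member, 18 were tested, of which 4 rose and 12 fell, with a median log2 fold change of -0.33. Of all genes tested, 79.3% were called, 39.9% higher and 39.4% lower, so a call alone says little about a target. A link of these changes to any member was not tested. Both directions of control are known among them. The 4 that rose were Ccl5, a target of KLF13, by 2.93 on the log2 scale (SE 0.14), Smad7, the TGF-beta feedback inhibitor that KLF10 and KLF11 are reported to repress, from 993 ± 97.3 to 2086 ± 151 normalized counts (SD, n = 3; log2 fold change 1.07, SE 0.074), Cdkn1a, the cell cycle inhibitor p21 that KLF4 and KLF6 activate, from 574 ± 41.1 to 1023 ± 69.7 (0.83, SE 0.081), and Lgals3, repressed by KLF3, from 10498 ± 249 to 13429 ± 406 (0.36, SE 0.034), for which total counts gave 0.57 and the trend removal 0.61. The paper counts Ccl5 among the interferon-stimulated genes whose mRNA rose by RT-qPCR when KDM3B was inhibited. A part of KLF13 in the rise of Ccl5 was not tested. Ccnd1, the cyclin D1 gene, reported to be activated by KLF5 and repressed by KLF4, fell from 40236 ± 2198 to 11859 ± 501 normalized counts (-1.76, SE 0.042). The mitotic cyclin gene Ccnb1 fell by 1.71 on the log2 scale (SE 0.036). Fgfbp1, reported as a KLF5 target in epithelia, fell from 1576 ± 87.7 to 169 ± 17.3 (-3.22, SE 0.089). Plau, the urokinase gene, and Ptges, a prostaglandin synthase gene, fell by 1.68 and 0.96 on the log2 scale, and Mmp9, a matrix protease gene, by 0.67. Cdh1, the E-cadherin gene that KLF4 activates, fell by 0.32 on the log2 scale (SE 0.031), and had -0.10 with total counts (adjusted p = 0.00752). The remaining targets that fell were Tgfb1, Eng, Pdgfa, Nos3 and Krt13. Nos3 had at most 34 reads in a library and Krt13 at most 19. Krt13 had the lowest log2 fold change of the list, -4.05. With total counts, 9 targets were lower.

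The genes whose centred log2 CPM over the 6 libraries were nearest to those of Klf11 were Mlycd, which encodes malonyl-CoA decarboxylase, at a root mean square difference of 0.0932, Kalrn at 0.0953 and Atf5, a stress-related transcription factor gene, at 0.0962. Mlycd went from 110 ± 4.78 to 749.6 ± 22.4 normalized counts, Kalrn from 4.25 ± 0.766 to 37.2 ± 2.55 (log2 fold change 3.08, or 0.88 by limma on log2(CPM + 1)) and Atf5 from 849 ± 91.5 to 5142 ± 100.5 (SD, n = 3). For Klf2, the nearest were Fgfbp3 (0.0869), Trp53rkb (0.0892) and Arrdc2 (0.103), with log2 fold changes of -0.55, -0.38 and -0.41. Arrdc2 passed the test (adjusted p = 0.0399 from edgeR), a call lost in 7 of 16 alternatives, among them leaving out the first DMSO (adjusted p = 0.141), the third DMSO (0.176) or the first P3FI-90 library (0.155), and Fgfbp3 and Trp53rkb did not. Trp53rkb passed without the second DMSO (adjusted p = 0.0297) or the third P3FI-90 library (0.0118). With 6 libraries in 2 groups, a near pattern says mainly that a gene has a like fold change.

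**Figure D5:**
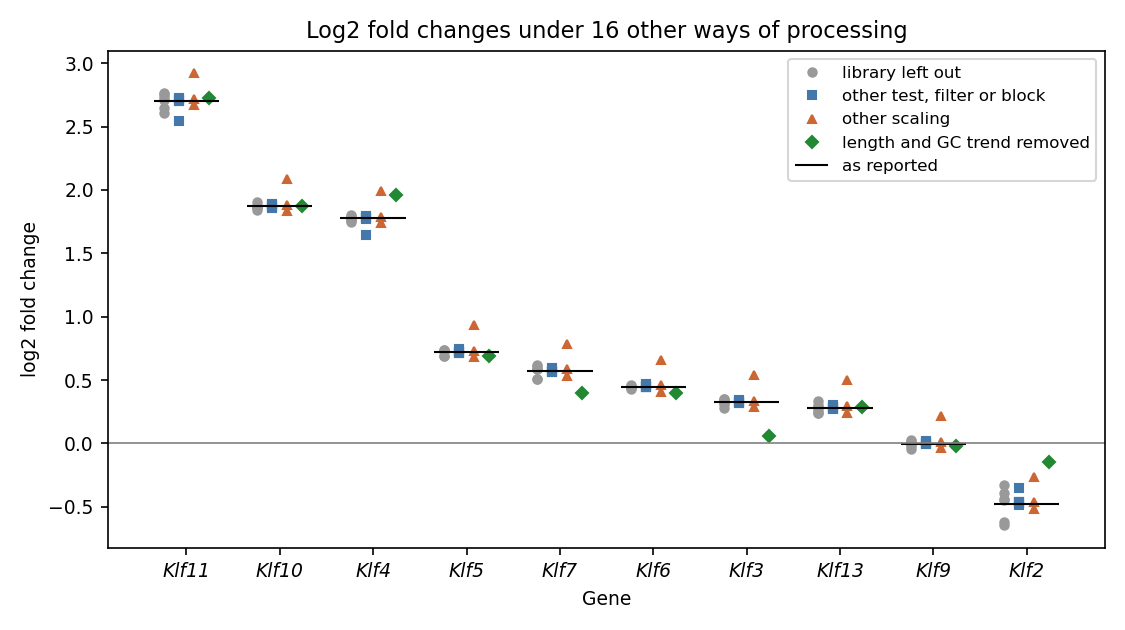
Log2 fold change of each member (vertical axis) as reported (black line) and under 16 other ways of processing, which leave out a library, change the test, filter or block, change the scaling, or remove the trend with length and GC content. Klf11, Klf10 and Klf4 stay above 1.6, Klf3 drops to 0.056 with the trend removed, and Klf9 lies on both sides of 0.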

How the data were processed

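mRNA-seq of 4T1 cells, 3 libraries with DMSO and 3 with 10 µM P3FI-90 for 24 h, was taken up at the raw counts, whole numbers for each gene, deposited by the authors without normalization. The submitters' processing notes name CASAVA, HISAT2, StringTie and GRCm39. Their roles, the annotation and the strandedness are not given in the sources used here. Of 22401 rows, 296 carry transcript identifiers and no gene identifier. These rows, with 0.483% to 0.556% of the counts per library, were not used. Between 278 and 389 genes per library had 2 counts and between 81 and 131 had 1, and whether both mates were counted was not tested. Intervals cover the fitted model or counting error only.

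Genes were filtered with filterByExpr and compared with the quasi-likelihood test of edgeR 4.0.16 in R 4.3.3, without a batch or pairing term. The SE is the absolute log2 fold change divided by the square root of the F statistic. Deviations of equally numbered libraries correlated by -0.021, 0.015 and 0.0049, so numbers were not treated as pairs. Within a group, chi-square values between pairs of libraries were 5.39 to 8.36 per gene. Alternatives used DESeq2 1.42.0 and limma 3.58.1 (the paper's tool), other scalings and filters, a replicate block and each library left out. The trend removal (natural splines with 4 degrees of freedom each for exon length and GC content of 12263 genes) and the longest transcript as length were chosen after seeing the data. Lengths, shared windows and overlaps come from GENCODE M21 (GRCm38), matched by gene identifier. Promoters come from RefSeq, and their coordinates are not those of the build in the processing notes. The test was tried on simulated counts of 12174 genes. It called 100 of 100 genes changed by 1 and 100 of 100 changed by 2 on the log2 scale, with 8 false calls. How the test performs where most genes are called, as in these data (79.3% of genes tested), was not tested.

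The members and lists were chosen with earlier results of these data known, and the lists were written by hand from general knowledge. The text names all 10 members, from each list up to 4 called genes with at least 100 normalized counts and the largest changes, list genes whose role toward a member is described, and the 3 genes most like the member with the largest rise and the member with the largest fall. The remaining called genes of a list (marker lists aside), the low genes Klf1 and Klf12 and Kdm3b and all genes given as not passing were named after their values were seen.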

Additional observations from a re-analysis of the deposited data

How the results depend on the processing

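The rises of Klf4, Klf5, Klf6, Klf7, Klf10, Klf11 and Klf13 kept their direction and their call in all 16 alternatives, and that of Klf3 in all but the removal of the length and GC trend. Klf10 stayed between 1.83 and 2.09, Klf11 between 2.54 and 2.92 and Klf4 between 1.64 and 1.99 on the log2 scale. The number of members that rose was 8 with each library left out. The number that fell ranged from 0 to 1 over the libraries left out and was 1 with upper quartiles, with no filter and with limma on log2(CPM + 1), each time Klf2.

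Klf9 changed sign, to a log2 fold change of 0.0099 with DESeq2's size factors, 0.21 with total counts, 0.018 with at least 10 counts in every library, 0.0097 by DESeq2, 0.0017 by limma on log2(CPM + 1) and 0.0012 with the replicate block, and it ranged from -0.046 to 0.028 with a library left out. With total counts, Hdac2 turned to 0.039 and Mapk7 to 0.088, 1 other Klf gene and 1 ubiquitin ligase gene were lower, and 5 TGF-beta genes were higher. With the trend removed, Klf1 turned to 0.087, Klf16 to 0.049 and Mapk7 to 0.033, Kdm3b to -0.10, 1 other Klf gene was lower and 4 TGF-beta genes were higher. The number of other Klf genes that rose was 0 with no filter, with at least 10 counts in every library and with the replicate block, and 0 to 1 with a library left out. The number of lower genes of the ERK5 route was 1 with upper quartiles and 0 to 1 with a library left out. The cause of these changes was not tested. The replicate block changed no call of a member. Low read counts limit the precision for Klf1 and Klf12, with at most 25 reads in a library.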
